A study of Rattus norvegicus with 2 samples.

Results

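The 10 genes described here form the sterol-sensing control circuit of the cell: the sterol regulatory element binding proteins (Srebf1, Srebf2), the escort protein and retention proteins that hold them in the endoplasmic reticulum (Scap, Insig1, Insig2), the Golgi proteases that release them (Mbtps1, Mbtps2), the liver X receptors (Nr1h2, Nr1h3) and the ubiquitin ligase Mylip. They were chosen by name, with the ratios of these 2 arrays already known, among them the low Srebf1 ratio, so their own differences between the arrays are given as a description. Every probe set that carries a single one of these symbols was taken, which gave 15 of the 31099 probe sets of the array for 10 of 14218 named genes. RNA came from cultured astrocytes, the main supporting glia of the brain, prepared from hippocampus of Sprague-Dawley rats at embryonic day 18 with a genotype labelled normal. The control culture expressed the vector alone (IRES2-RFP, a red fluorescent protein), and the other culture expressed 5ppase-IRES2-RFP, so that both carried the fluorescent protein. The design sets astrocytes with calcium signalling (control) against astrocytes without it (5ppase), and asks here how the sterol-sensing genes read in both states. The phosphatase gene and its species, the promoter of the vector, the share of cells that carried it and the number of animals or cultures behind each array are stated in none of the labels. No probe set could therefore be used to check them.

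In the textbook scheme, SREBPs are made as membrane-bound precursors of the endoplasmic reticulum. When membrane cholesterol is high, Scap binds an Insig protein and keeps the precursor there, and when it is low Scap carries the precursor to the Golgi, where the site-1 and site-2 proteases cut it and free a transcription factor for the nucleus. SREBP-2, from Srebf2, chiefly drives cholesterol synthesis, and SREBP-1, from Srebf1, chiefly drives fatty acid synthesis. Liver X receptors work in the other direction: bound to oxysterols and paired with a retinoid X receptor, they turn on genes of sterol export such as Abca1, Abcg1 and Apoe, and also Mylip and Srebf1. Astrocytes make much of the cholesterol and apolipoprotein E of the brain. The arrays measured messenger RNA, and neither the cleavage of SREBPs nor the binding of receptors was measured.

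Each group had 1 array, so there is no error between cultures, nothing was tested and no p-value is printed. Values are single-colour signal intensities per probe set, and every log2 ratio is 5ppase over control. A gene was compared where its brightest probe set lay above a signal floor of 62.0 on both arrays and reached 208 on at least 1, which left 8261 genes, and probe sets under the floor have no usable ratio. The median log2 ratio of the compared genes was -0.017, with 3955 (47.9%) higher and 4306 (52.1%) lower in 5ppase. The internal repeat was a second probe set: over 1881 genes with a pair compared, the SD of a single ratio taken from the pairs was 0.26, and it was 0.34 in 295 genes with a mean signal under 500 and 0.20 in 599 genes over 2000. That spread covers differences between probe sets of a gene read on the same arrays. Labelling or hybridisation effects that these probe sets share are not covered, nor are differences between cultures. In bulk RNA a lower signal from fewer cells of a type and from less RNA per cell cannot be told apart.

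Across the circuit, Srebf1 was lower in 5ppase and Insig1 was higher, while the messages of the escort protein, the proteases and Mylip differed little between the arrays. Of the 10 genes 9 were compared, 5 with a higher and 4 with a lower signal in 5ppase, and Nr1h3 was too dim. Insig1 was the only one of the 9 at least 1.5-fold higher, beside 5.25% of all compared genes, and Srebf1 the only one at least 1.5-fold lower, beside 5.46%. None of the 9 was at least 2-fold higher, beside 1.5% of compared genes, and Srebf1 alone was at least 2-fold lower, beside 1.42%. The genes were chosen with this contrast known, so nothing is read from these shares. The median log2 ratio of the 9 was 0.06.

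**Figure D1:**
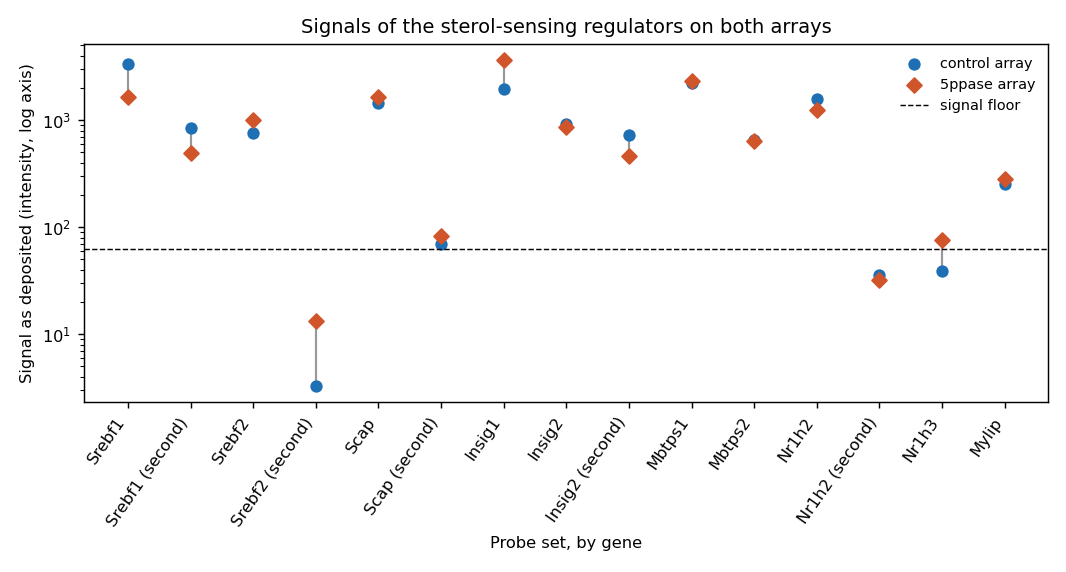
Signal of each of the 15 probe sets (y axis, intensity on a log axis) on the control array (circles) and the 5ppase array (diamonds), with a grey line joining both values of a probe set and a dashed line at the floor of 62.0. Both Srebf1 probe sets sit lower in 5ppase, Insig1 sits higher, and for Srebf2 and Nr1h2 the second probe set lies under the floor on either array. Heights of different probe sets cannot be compared with each other.

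The SREBP genes themselves read in opposite directions. Srebf1, whose protein drives fatty acid synthesis and which is itself a liver X receptor target, read 3366 in control and 1642 in 5ppase at probe set 1388426_at, a log2 ratio of -1.04, or 2.05-fold lower in 5ppase. Its second probe set, 1371104_at, gave 851 and 493, a log2 ratio of -0.79, or 1.73-fold lower. Both probe sets were thus well above the floor and lower in 5ppase. Of all 8261 compared genes 1.28% had a ratio as low as that of Srebf1, which was the 106th lowest. The stretch of the message that either probe set reads is not known here, so the transcripts that start at the upstream and downstream promoters of Srebf1 were not told apart.

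Srebf2, whose protein drives cholesterol synthesis, gave 753.5 in control and 1014 in 5ppase, a log2 ratio of 0.43, or 1.35-fold higher in 5ppase. Of all compared genes 9.14% had a ratio at least as high. Its second probe set read 3.3 and 13.4, under the floor in both cases, and adds nothing. At the brightest probe set of each gene, the Srebf2 ratio was 1.46 above that of Srebf1 on the log2 scale. No common scaling factor changes this difference within the same pair of arrays, but it would be smaller with the second Srebf1 probe set (-0.79).

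Insig1 and Insig2 both bind Scap and keep the SREBP complex in the endoplasmic reticulum, and Insig1 is in turn a target of SREBPs. Insig1 gave 1968 in control and 3634 in 5ppase at its only probe set, a log2 ratio of 0.89, or 1.85-fold higher. It had the 172nd highest ratio, and 2.08% of compared genes were as high. Insig2, which is not a classical SREBP target, gave 925 and 855 at its brighter probe set (log2 ratio -0.11) and 723.5 and 466 at the other (-0.63). Both Insig2 probe sets were lower in 5ppase, by amounts that disagree, and the ratio of the brighter was near the middle of all genes. The Insig1 ratio exceeded that of Insig2 by 0.998 on the log2 scale at the brighter probe set.

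Promoter windows of Srebf1, Srebf2 and Insig1 are shown because these 3 genes had the ratios farthest from 0 among the 9, and because the sterol regulatory element is the motif through which SREBPs act on their own circuit. The windows come from RefSeq on build GRCr8, run from 250 bases before to 50 bases after an annotated start and are written 5′ to 3′ on the strand of the gene. All 10 genes had an entry, 11 windows in all, since Srebf1 has separate upstream and downstream starts. Capitals mark the sterol regulatory element core TCACNCCA, the E-box CACGTG and the CCAAT box, which is the site of the SREBP partner NF-Y and reads ATTGG on the other strand. The sequences are those of Insig1 (chr4:8057720-8058019, minus strand), Srebf2 (chr7:115543057-115543356, plus strand), the upstream start of Srebf1 (chr10:45529115-45529414, minus strand) and its downstream start (chr10:45518961-45519260, minus strand).
Insig1: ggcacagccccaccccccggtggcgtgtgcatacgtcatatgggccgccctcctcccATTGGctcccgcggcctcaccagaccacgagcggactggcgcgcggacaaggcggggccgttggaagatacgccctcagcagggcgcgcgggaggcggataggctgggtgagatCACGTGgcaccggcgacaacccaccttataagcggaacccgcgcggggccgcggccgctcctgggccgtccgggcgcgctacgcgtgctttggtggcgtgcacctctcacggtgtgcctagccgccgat
Srebf2: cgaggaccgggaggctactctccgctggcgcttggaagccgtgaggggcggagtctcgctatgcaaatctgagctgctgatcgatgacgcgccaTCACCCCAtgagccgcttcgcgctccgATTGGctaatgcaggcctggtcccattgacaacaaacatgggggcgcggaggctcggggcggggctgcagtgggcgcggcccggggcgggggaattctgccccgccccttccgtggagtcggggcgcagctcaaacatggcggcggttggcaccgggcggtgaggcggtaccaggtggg
Srebf1 upstream: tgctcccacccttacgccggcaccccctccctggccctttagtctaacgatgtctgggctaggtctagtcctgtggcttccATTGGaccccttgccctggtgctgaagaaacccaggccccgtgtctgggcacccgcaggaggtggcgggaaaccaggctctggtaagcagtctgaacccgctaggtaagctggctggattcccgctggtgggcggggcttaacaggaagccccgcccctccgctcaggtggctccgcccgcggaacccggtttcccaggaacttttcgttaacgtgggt
Srebf1 downstream: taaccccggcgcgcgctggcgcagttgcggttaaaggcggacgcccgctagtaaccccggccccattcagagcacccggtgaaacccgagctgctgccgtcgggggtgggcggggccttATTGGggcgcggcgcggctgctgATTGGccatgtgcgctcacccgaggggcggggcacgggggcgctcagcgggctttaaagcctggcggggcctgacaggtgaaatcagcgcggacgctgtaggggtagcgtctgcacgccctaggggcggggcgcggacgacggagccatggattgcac

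Searched on both strands, the core TCACNCCA occurred in 1 of the 11 windows, that of Srebf2, at positions -156 to -149 from the start, and in 3.89% of the 33469 rat windows of this length. In that window a CCAAT box followed at -129 to -125. The E-box occurred in the windows of Insig1, at -79 to -74, and Scap, at -50 to -45, beside 6.42% of all windows. CCAAT boxes were found in 6 of the 11 windows, including all 4 shown, beside 37.5% of all, with 2 of them at -131 to -127 and -108 to -104 in the downstream window of Srebf1. The GC box GGGCGG was found in 7 of the 11, beside 33.1% of all, and is not capitalised. The exact DR4 motif of nuclear receptors, repeats of AGGTCA spaced by 4 bases, occurred in none of the 11 and in 2 of the 33469 windows. No match overlapped a match of another motif. Matches describe letters in these windows only, and a missing match says only that these letters are not there.

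Scap, the cholesterol-sensing escort of SREBPs, read 1447 on the control array and 1639 on the other (log2 ratio 0.18). Its dim second probe set gave 69.3 and 82.1 (0.24), also slightly higher in 5ppase. Both ratios were smaller than the SD of 0.26 between probe sets. Of all compared genes 24.6% had a ratio as high, so Scap stood among the many genes with a small positive ratio.

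The proteases were nearly level. Mbtps1, the serine protease that makes the first cut in an SREBP, gave 2209 and 2302 (log2 ratio 0.06). Mbtps2, the metalloprotease that makes the second cut within the membrane, gave 657 and 642 (-0.03, but 0.01 under quantile normalization or with a loess trend removed). Of all compared genes 84.0% had a ratio at least as far from 0 as Mbtps1 and 91.4% as Mbtps2, each of which had a single probe set. Of the other proteins these proteases cut, membrane-bound transcription factors and the phosphotransferase precursor Gnptab (459 and 507, 0.14, chosen after its values were seen), 6 were compared: 4 were higher and 2 lower (5 and 1 under quantile normalization or after loess), with a median of 0.23. The 2 brightest of the 6 were the stress sensor Atf6 (991 and 908, -0.13) and the related factor Creb3 (2085 and 2812, 0.43), and Atf6b, chosen after its values were seen, had the highest ratio (243 and 365, 0.59).

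Of the liver X receptors only Nr1h2 gave enough signal to compare. Nr1h2, the widely expressed beta receptor, read 1565 on the control array and 1253 on the other (log2 ratio -0.32), and 16.6% of compared genes were as low. Its second probe set read 35.8 and 32.0, both under the floor. Nr1h3, the alpha receptor, gave 38.9 in control, under the floor, and 75.5 in 5ppase, just above it, and is given no ratio. Mylip, the ligase that sends lipoprotein receptors to degradation and is switched on by liver X receptors, gave 253 and 284 (0.17), not far above the 208 that a compared gene had to reach. Among the partners of Mylip, the very low density lipoprotein receptor Vldlr, one of its substrates, gave 2164 and 2106 (-0.04, then -0.24 at the other probe set) and the ubiquitin-conjugating enzyme Ube2d2 gave 3941 and 3393 (-0.22, then -0.16). Of 5 genes of that list on the array 3 were compared, with a median of -0.04.

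**Figure D2:**
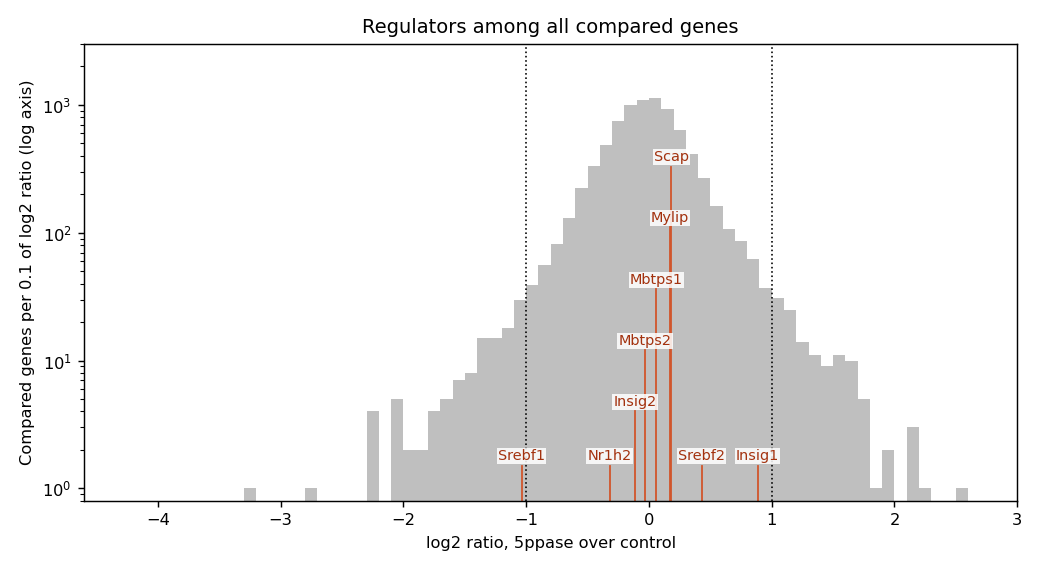
Histogram of the log2 ratio of 5ppase over control (x axis) for the 8261 compared genes, with the number of genes per 0.1 on a log axis and dotted lines at 2-fold; orange lines mark the 9 compared regulators. Srebf1 at -1.04 lies just past the lower dotted line, Insig1 at 0.89 short of the upper one, and the other 7 between -0.32 and 0.43. The heights of the orange lines only separate the names.

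The genes on which SREBPs act were described from lists, which were drawn up with earlier results of these data known. Cholesterol synthesis genes, which SREBP-2 switches on, were higher in 5ppase throughout: all 18 compared of 19 on the array had a positive ratio, with a median of 0.98 beside -0.017 for all compared genes, of which 47.9% had a positive ratio. At least 1.5-fold higher were 15, beside 5.25% of all compared genes, and 9 were at least 2-fold higher, beside 1.5%. Of these 18, Mvd, Hsd17b7 and Ggps1 were under 208 in control, and these 3 could pass only by being higher in 5ppase. The 15 bright on both arrays all had positive ratios, with a median of 0.96. The ratios of this list thus had the sign of those of Srebf2 and Insig1 and the opposite of that of Srebf1.

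Second probe sets gave an internal repeat for several of these enzymes. Idi1, which makes the activated isoprene unit, gave 1085 and 2984 (log2 ratio 1.46) and, at its second probe set, 177 and 655 (1.88). Hsd17b7, a sterol ketone reductase, gave 189 and 550 (1.54) and then 122 and 233 (0.94). Both enzymes were higher in 5ppase at both probe sets. However, the second Idi1 probe set and both Hsd17b7 probe sets were under 208 in control and were compared only because they were higher in 5ppase. Mvd, compared for the same reason, which forms isopentenyl diphosphate, had a ratio of 1.63 (103 and 318) from a single probe set. Acat2, which joins acetyl-CoA units at the head of the pathway, had 1.27 (552.5 and 1335), also from 1 probe set, and was bright on both arrays. Chosen after their values were seen, the lanosterol demethylase Cyp51 (1.03, then 1.42), Nsdhl (1.003, then 1.13), squalene synthase Fdft1 (1.21, then 0.54) and the desaturase Sc5d (0.82, then 0.36) were also higher at both probe sets. Ggps1, also chosen so, makes the precursor for protein prenylation and was the exception among those with a second probe set above the floor, with 0.61 at its brighter and -0.22 at its dimmer probe set, the latter from 120 and 103. Mvk, chosen so too, had the smallest ratio of the list, 0.14 at both probe sets. Its second probe set (207.6 and 228.3) passed only through its 5ppase signal.

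Fatty acid synthesis genes, the usual targets of SREBP-1, were also mostly higher in 5ppase, while the Srebf1 message was lower. Of 18 on the array 13 were compared, 12 with a positive and 1 with a negative ratio (11 and 2 with a common median), with a median of 0.41, beside 47.9% of all compared genes with a positive ratio. At least 1.5-fold higher were 4, beside 5.25% of all, and 0 were that much lower, beside 5.46%. Fasn, the fatty acid synthase, gave 1169 and 1720 (0.56) and, at its second probe set, 554 and 638 (0.20). Scd, a desaturase that both SREBP-1 and liver X receptors switch on, was under the floor in control (50.3) and gave 209 in 5ppase. It was thus not compared and is given no ratio, and its 5ppase signal was 3.37 times the floor. The brightest members were nearly level at their brightest probe sets: Scd2 gave 6451 and 6543 (0.02, negative with a common median, quantile normalization or loess), with 403 and 316 at its second probe set (-0.35), and Mid1ip1, an activator of acetyl-CoA carboxylase, gave 5425 and 5585 (0.04). Chosen after their values were seen, the 4 genes past 1.5-fold were Aacs (0.95), the ATP citrate lyase Acly (0.85), the elongase Elovl6 (0.72, then 0.82 at its second probe set) and Acss2 (0.65).

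Only 4 sterol uptake and transport genes were compared, too few to read a common direction. Of these, 3 had a positive and 1 a negative ratio, with a median of 0.12, beside 47.9% of all compared genes with a positive ratio. The 3 bright on both arrays were those with a positive ratio, with a median of 0.17. Npc2, a lysosomal cholesterol carrier, gave 15498 and 17466 (0.17), and Tmem97, an SREBP target of the endoplasmic reticulum, gave 677 and 1077 (0.67) and 428 and 806.5 at its second probe set (0.91). Stard4, a sterol carrier chosen after its values were seen, gave 274 and 170 (-0.69), while its second probe set read 181 and 196 (0.11), so its probe sets disagreed. The brighter Stard4 probe set was under 208 in 5ppase and passed only through its control signal.

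Genes that liver X receptors switch on were mostly lower in 5ppase, as Srebf1 was. Of 15 on the array only 7 were compared, all bright on both arrays, and 5 were under the floor on both. Of the 7, 5 had a negative and 2 a positive ratio, with a median of -0.46, beside 52.1% of all compared genes with a negative ratio. At least 1.5-fold lower were 3 (2 under quantile normalization or after loess), beside 5.46% of all, and 0 were that much higher, beside 5.25%. The pump Abca1, which loads cholesterol onto apolipoproteins, gave 1479 and 763 (-0.95), while its second probe set read 377 and 337 (-0.16). The pump Abcg1, which works after it, gave 1513 and 1006 (-0.59) and then 184 and 81.2 (-1.18). Both transporters were lower in 5ppase at both of their probe sets, by amounts that differed between probe sets. The second Abcg1 probe set reached 208 on neither array. Apoe, the main lipoprotein of astrocytes, gave 8972 and 6522 (-0.46), with a second probe set under the floor. Lpl, the lipoprotein lipase, gave 2658 and 2978 (0.16). Chosen after their values were seen, Smpdl3a (-0.64) and the phospholipid transfer protein Pltp (-0.37) were the other genes with negative ratios, and Lpcat3 (0.20, then 0.38 at its second probe set) was the other with a positive one. Scd belongs to this list too but was not compared, with its control signal under the floor and its 5ppase signal above it.

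**Figure D3:**
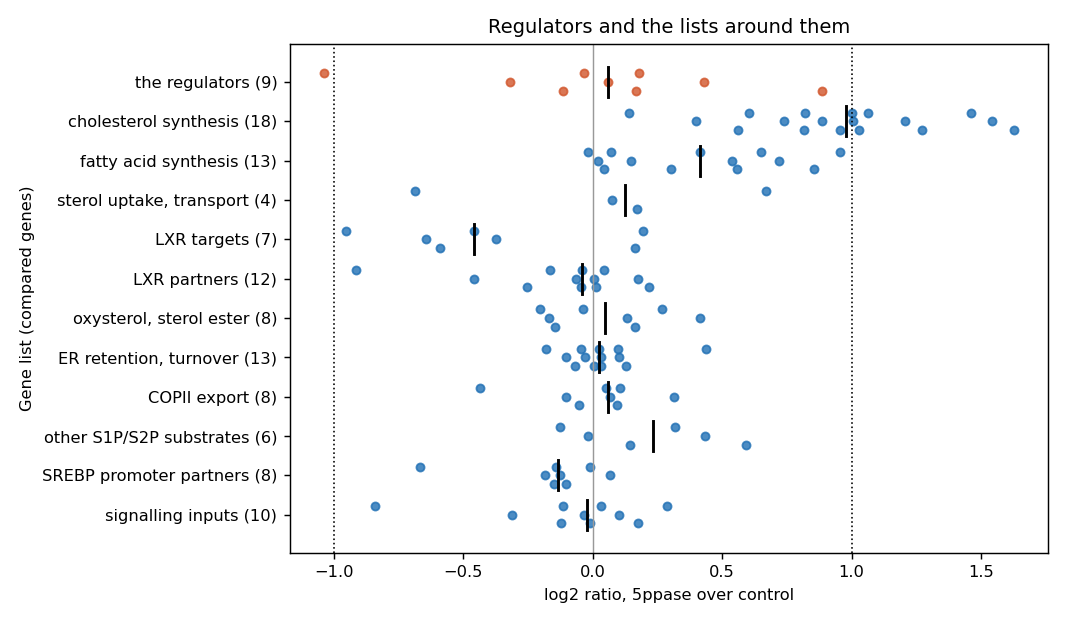
Log2 ratio of 5ppase over control (x axis) of each compared gene in the regulators (orange) and in 11 lists around them (blue), with the number of compared genes in brackets, black bars at medians and dotted lines at 2-fold. Cholesterol synthesis (median 0.98) lies wholly above 0, LXR targets (median -0.46) mostly under it, and the lists of the retention, export and signalling machinery (medians from -0.021 to 0.059) around it.

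The machinery that holds, exports and destroys SREBPs and Insigs was nearly level, as were Scap, the proteases and most compared genes. Of 13 compared genes of retention and turnover 0 were 1.5-fold apart, and the median was 0.023. Higher in 5ppase were 8 and lower 5 (6 and 7 with a common median), beside 47.9% and 52.1% of all compared genes. Of all compared genes 89.3% were also less than 1.5-fold apart, so nothing particular to this machinery is read from that count. The unfolding ATPase Vcp, which pulls ubiquitinated Insig1 from the membrane, gave 6500 and 6976 (0.10), and Pgrmc1, a membrane protein reported to bind Scap and Insig1, gave 5844 and 6386 (0.13). Fbxw7, chosen after its values were seen, is the ligase that sends nuclear SREBPs to degradation and had the highest ratio (189 and 255, 0.44, with 0.58 at its second probe set). Its brighter probe set was under 208 in control and was compared only because it was higher in 5ppase. The second (94.6 and 141.8) reached 208 on neither array. The 8 compared genes of the COPII coat, which packs Scap and SREBPs into vesicles, had a median of 0.059. None was 1.5-fold apart, and 89.3% of all compared genes were not either. The COPII GTPase Sar1a gave 6691 and 7194 (0.10), and Sec13 gave 6423 and 6662 (0.05).

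Most genes for proteins that work beside the SREBPs or the liver X receptors on DNA were less than 1.5-fold apart. The same held for 89.3% of all compared genes. Of 8 compared promoter partners of SREBPs 7 had a negative and 1 a positive ratio (6 and 2 under quantile normalization), with a median of -0.13. Of all compared genes 52.1% had a negative ratio. Sp1 gave 1829 and 1814 (-0.01, but positive under quantile normalization, and -0.17 at its second probe set). Yy1 gave 2823 and 2630 (-0.10, but 0.11 at its dim second probe set). Only the NF-Y subunit Nfyb, chosen after its values were seen, was 1.5-fold apart (600 and 377, -0.67). Its second probe set gave -0.36 but reached 208 on neither array. Of 12 compared partners of the liver X receptors 5 had a positive and 7 a negative ratio (3 and 9 with a common median), with a median of -0.04. The brightest were the corepressor subunits Tbl1xr1 (2757 and 2006, -0.46) and Hdac3 (1086 and 1040, -0.06), and the second probe set of Tbl1xr1 went the other way (288 and 335.5, 0.22). The coactivator Ppargc1a, chosen after its values were seen, was the only one 1.5-fold apart (385 and 204, -0.91), and its second probe set gave 261 and 116 (-1.17). Both Ppargc1a probe sets were under 208 in 5ppase and passed only through their control signal. The retinoid X receptors, chosen after their values were seen, differed in signal. Rxrb was compared and nearly level (252 and 254, 0.01, but negative with a common median), while Rxra (70.3 and 50.8) and Rxrg (55.3 and 26.2) were too dim to compare.

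The list around oxysterols, the ligands of the liver X receptors, joins enzymes that make, convert or esterify sterols with oxysterol-binding proteins, and gave no common direction. Of 13 genes on the array 8 were compared, 4 higher and 4 lower, and the median was 0.047. None of the 8 was 1.5-fold apart, and 89.3% of all compared genes were not either. Of these 8, 5 are binding proteins (Osbp and its relatives) and not enzymes. Osbpl5, a sterol-binding protein, gave 2107 and 1904 (-0.15), and Lcat, which esterifies cholesterol on lipoproteins, gave 1616 and 1945 (0.27). The hydroxylases that make oxysterols, chosen after their values were seen, were dim: Ch25h gave 6.6 and 39.4, Cyp27a1 gave 3.9 and 46.9 and Cyp46a1 gave 35.9 and 26.6, all under the floor. Among 10 compared signalling inputs to SREBPs the median was -0.021, and the kinase Akt1 (3208 and 3445, 0.10, then -0.04 at its second probe set) and the receptor Igf1r (2079 and 2348, 0.18, then 0.31) were the brightest. Lpin1, an inhibitor of nuclear SREBP chosen after its values were seen, was the only one 1.5-fold apart (338 and 189, -0.84), but its second probe set gave 210.5 and 225 (0.10). At its brighter probe set Lpin1 was under 208 in 5ppase and passed only through its control signal.

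Markers of cell types and of dividing cells also differed between the arrays, beside the Srebf1, Insig1 and target gene differences. Of 14 compared astrocyte markers 9 had a negative and 5 a positive ratio (3 positive under quantile normalization and 4 after loess). Of all compared genes 52.1% had a negative ratio. The median of the 14 was -0.48, and the summed signal of the 19 on the array was 120442 in control and 96899 in 5ppase. Gfap, the intermediate filament of astrocytes, gave 17525 and 7408 (-1.24), and Fabp7 (5972 and 1486, -2.01), Mlc1 (2551 and 1037, -1.30) and Atp1b2 (1088 and 476, -1.19) were also over 2-fold lower. No other compared astrocyte marker was 2-fold apart, and 1.42% of all compared genes were at least 2-fold lower. The astrocyte transporter Slc1a2 (24.1 and 25.7, chosen after its values were seen) was under the floor. Of 12 fibroblast markers 9 were bright on both arrays and 2 under the floor on both, and they summed to 141639 and 130657. Among the 10 compared, 4 were higher and 6 lower in 5ppase, with a median of -0.08. The counts became 3 and 7 after loess, quantile normalization or median scaling. Thy1, chosen after its values were seen, was the only one at least 1.5-fold higher (3311 and 6032.5, 0.87). Its second probe set gave 1844 and 3918 (1.09). Mgp (1902 and 199, -3.26) and Igfbp5 (2218 and 530, -2.06) were the fibroblast markers over 2-fold lower. Mgp was under 208 in 5ppase and passed only through its control signal. Neuron markers summed to 6861 and 13404, with 8 of 14 under the floor on both arrays, and to 3095 and 2339 without Stmn2 (3766 and 11065.5, 1.55). Of the 4 compared neuron markers 2 were higher, Stmn2 and Tubb3 (87.9 and 290, 1.72), and 2 lower, one of them Gad1 (998 and 422, -1.24). Tubb3 was under 208 in control and could pass only by being higher in 5ppase, and its second probe set was under the floor. Of the 3 neuron markers bright on both arrays 1 was higher and 2 lower, with a median of -0.52. Microglia markers summed to 1370 and 2685, with 9 of 13 under the floor on both and Tmem119 (1078 and 2273) the only one compared. Oligodendrocyte markers summed to 3912 and 2250, with 6 of 11 under the floor on both, and to 2541 and 2203 without Cldn11 (1371 and 47.2, chosen after its values were seen), while Cspg4 was over 2-fold higher (261.5 and 629.5, 1.27). Endothelial markers summed to 1435 and 719.9, with 7 of 9 under the floor on both, and to 223 and 336 without Ocln (1212 and 384, -1.66), so that the direction of this sum, as of the neuron sum, rested on 1 gene. Of 16 cell cycle genes on the array 8 were compared, and 7 of these were higher in 5ppase, beside 47.9% of all compared genes. Past 2-fold higher were 6, beside 1.5% of all. All 6 were under 208 in control and could pass only by being higher in 5ppase. The 6 include Ccnb1 (65.9 and 288.5, 2.13), Ube2c (109 and 305, 1.48), Kif20a (96.0 and 248.9, 1.37) and Cdk1 (188 and 428, 1.18). The 2 bright on both arrays, chosen after their values were seen, were Mcm2 (296 and 348, 0.23) and Pcna (4508 and 4371, -0.04). The part of these differences in the ratios of the sterol-sensing genes was not tested.

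Direction and size of the regulators' ratios depended little on scaling. Srebf1 ranged from -1.07 to -0.79 over 12 settings, the latter at its second probe set, and Insig1 from 0.85 to 0.89 over 11. Insig1 is bright and has a single probe set, so the settings of floor, filter or probe set could not change its value. Srebf2 ranged from 0.21, where its second probe set, under the floor, was averaged in, to 0.46, and Nr1h2 from -0.35 to -0.16. Only Mbtps2 changed sign, from -0.06 to 0.01. Insig2 was the gene whose value rested most on the probe set, between -0.63 and -0.08.

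**Figure D4:**
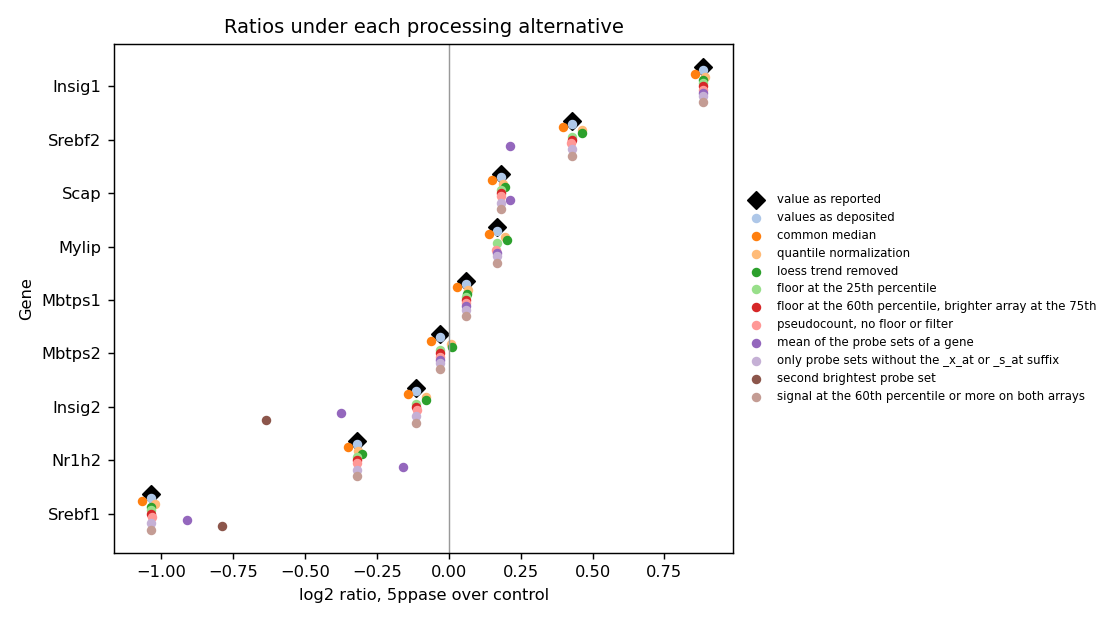
Log2 ratio of 5ppase over control (x axis) of the 9 compared regulators (y axis) as reported (black diamonds) and under each processing alternative that gave a value (coloured circles). Points of a gene lie close together except where another probe set was used, as for Insig2 (to -0.63), Srebf1 (to -0.79) and Srebf2 (to 0.21).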

How the data were processed

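Expression was measured on 1 control and 1 5ppase array, each placed in its group by its title. The deposited values are linear signal intensities, made by the authors with MAS5 per the submitters' processing notes (version and settings unstated). Both arrays have a trimmed mean of 500.2 (2% off each end); scaling them to a common trimmed mean changed only rounding. No sample column was unused (0). Of 31099 probe sets 20832 had 1 gene symbol in an old platform annotation, 436 several and 9831 none; 20764 named ones matched a current RefSeq gene (GRCr8), and 0 symbols changed. The brightest probe set stands for a gene. Signals under the pooled 40th percentile (62.0), which is not a detection call, were raised to it before log2, and compared genes had to reach the pooled 60th (208) on an array. This understates ratios of dim genes, and the number of arrays limits all precision.

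The 10 genes and the 19 lists (253 symbols, 234 on the array, 1 by synonym) were chosen with earlier results of these data known. Named from each list were the largest compared ratios past 2-fold (up to 4) or, failing any, the 2 brightest genes, and, whatever their values, genes that include Fasn, Scd, Abca1, Abcg1, Apoe and Gfap; all others were chosen after their values were seen. With 2 arrays no genes were ranked by likeness. Some other listed genes are not reported here. Alternatives were the deposited values, a common median, quantile normalization, a removed loess trend (span 0.3), a floor at the 25th percentile, a floor at the 60th (brighter array at the 75th), a pseudocount (10th percentile, 6.4), the mean of probe sets, no _x_at or _s_at probe sets and the second brightest probe set; a filter for bright signal on both arrays was added after seeing the data. The steps were tested on simulated data. Python 3.11.15, pandas 2.3.3, SciPy 1.17.1 and statsmodels 0.14.6 were used.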

Additional observations from a re-analysis of the deposited data

How the results depend on the processing

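No paired analysis was possible because each group has 1 array, and no replicate could be left out. Of 324 values recomputed under an alternative 299 stayed within the probe set spread of 0.26 or, for counts, within 1.5 times, and none that was 1.5-fold apart changed sign. Insig2 moved to -0.37 with the mean of its probe sets and to -0.63 at the second brightest, which reads another probe set. The number of regulators at least 1.5-fold higher became 2 with the pseudocount, which admits the dim Nr1h3, and 0 with second probe sets, which Insig1 does not have. Those 1.5-fold lower became 2 with second probe sets, Srebf1 and Insig2, and those 2-fold lower became 0 there and with the mean of probe sets. The median of the liver X receptor targets was -0.16 over 15 genes with the pseudocount, and that of the astrocyte markers 0.59 over 5 genes with second probe sets. Over all genes both the number compared and the share past a fold changed, and the cause was not tested. The share at least 1.5-fold higher was 3.86% of 5696 with the 60th percentile floor, 14.1% of 14218 with the pseudocount, 6.11% of 1883 with second probe sets and 3.71% of 7631 with bright signal on both arrays, against 5.25% of 8261. In counts, at least 1.5-fold higher and lower were 220 and 217 with the 60th percentile floor, 1998 and 1785 with the pseudocount, 115 and 126 with second probe sets and 283 and 291 with bright signal on both arrays, against 434 and 451. At least 2-fold higher and lower were 66 and 56, 1111 and 976, 35 and 30 and 67 and 59 in the same order, against 124 and 117. Signal near the floor limits Nr1h3 and the second probe sets of Srebf2, Scap and Nr1h2.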
